A study of Homo sapiens with 15 samples.

Results

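The genes described here are 10 members of the amino acid stress pathway around the transcription factor ATF4: *ATF4*, *ATF3*, *DDIT3*, *DDIT4*, *TRIB3*, *ASNS*, *PSAT1*, *PHGDH*, *SLC7A5* and *CHAC1*. They were taken as every non-control array probe whose annotation carried a RefSeq accession of one of these genes. This gave 14 of the 42405 probes on the array, and the 10 genes are 10 of the 12885 named genes that were tested. *ATF3* had 4 probes, *CHAC1* had 2 and each of the other genes had 1. All 14 probes were well above background on all 15 arrays and none was saturated, so the filter on dim probes removed no member and did not favour either group.

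Cells that run short of amino acids, or that accumulate unfolded protein, phosphorylate the translation initiation factor eIF2. General protein synthesis then slows, while translation of the *ATF4* messenger RNA increases, so that ATF4 is largely controlled at the level of protein. ATF4 is a basic leucine zipper factor that binds DNA together with partners of the C/EBP family and switches on genes for amino acid synthesis, amino acid import and redox balance, along with further stress regulators such as CHOP.

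The samples were PE/CA-PJ41 cells, an immortalised line from a human oral squamous cell carcinoma, grown for 24 h in complete medium before total RNA was taken and 50 ng was labelled. The control group, NCE (non-cytoglobin expressing), is labelled as carrying an empty vector, whereas the study also calls NCE un-transfected, so whether transfection and selection differed between the groups is not settled. CYGB+ cells carried a pCMV6-Neo plasmid with the cDNA of cytoglobin, a haem protein of the globin family, integrated and selected with G418. Each group had 3 biological replicates, hybridised to 3 arrays each for NCE and 2 arrays each for CYGB+. Per the methods of the study the CYGB+ cells came from a single clone, so the transgene and the clone cannot be told apart. RNA came from 3 separate extractions, and p-values measure the spread between these extracts where the arrays of a replicate were averaged. The comparison asks how the ATF4 pathway differed between the 2 groups.

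The transfected gene was examined first. The *CYGB* probe (A_33_P3285868) gave a log2 green signal of 11.85, 12.15 and 11.96 in NCE replicates 1 to 3, and of 11.38, 12.44 and 11.97 in the replicates labelled CYGB+. The groups overlapped, with a log2 difference of -0.055 (SE 0.25, limma adjusted p = 0.913). The probe was well above background on all 9 NCE arrays, although NCE is named as not expressing cytoglobin. By its mean over all 15 arrays it was brighter than 92.2% of tested probes. Whether this probe lies inside the transfected cDNA is not known from the files, so it gives no check of the labels. These arrays hold no other check of the transgene, and every direction given here is taken from the labels. The labels place each named sample in the green (Cy3) channel. The red channel also held signal, from RNA that the labels do not name, and the study's methods put control RNA in the other dye.

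Between 48.9% and 57.3% of probes were well above background on each array. All 10 markers of oral squamous epithelium were above background on all 15 arrays, and 2 of them were lower in the replicates labelled CYGB+, *ITGB4* with a log2 difference of -0.66 and *KRT6A* with -0.46 (limma adjusted p = 0.0348 and 0.0448). Of the fibroblast markers, 1 of 6 was above background on all arrays, with none of the 4 endothelial and 2 of the 5 immune markers, and *COL3A1*, *LUM*, *PDGFRB* and *VWF* were among those above background on no array. The summed linear signal of the 6 fibroblast markers lay between 550.5 and 598.7 in NCE and between 416.8 and 443.1 in the replicates labelled CYGB+, mostly through *COL1A2* (log2 difference -1.32, limma adjusted p = 0.00311). The part of these markers in the results below was not tested. The first array of CYGB+ replicate 1 did not track its own repeat (r = -0.04 over deviations of all tested probes), and the second arrays of NCE replicate 3 and CYGB+ replicate 3 also stood apart from their groups, as did the third array of NCE replicate 1. Values without these arrays, which were chosen after seeing the data, are given where they matter.

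Expression of 5 of the 10 genes was higher in the replicates labelled CYGB+: *CHAC1*, *ASNS*, *PHGDH*, *DDIT3* and *PSAT1*, by 1.69-fold to 2.11-fold. No member was lower. Among all tested genes, each counted by 1 probe, 6.5% were called higher and 6.67% lower at an adjusted p of 0.05 (limma, Benjamini-Hochberg adjustment over 22328 probes). By the brightest probe of each gene, the differences of all 10 were above 0, against 50.9% of tested genes. For 7 of the 10, the 3 replicates labelled CYGB+ all lay above the 3 NCE replicates, against 18% of tested genes. The median log2 difference was 0.65 over the members and 0.0066 over all tested genes. The members were chosen with earlier results of these data known, so these comparisons are descriptive. *ATF4* itself, and *ATF3* by its brightest probe, *DDIT4*, *TRIB3* and *SLC7A5*, did not pass the test.

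**Figure D1:**
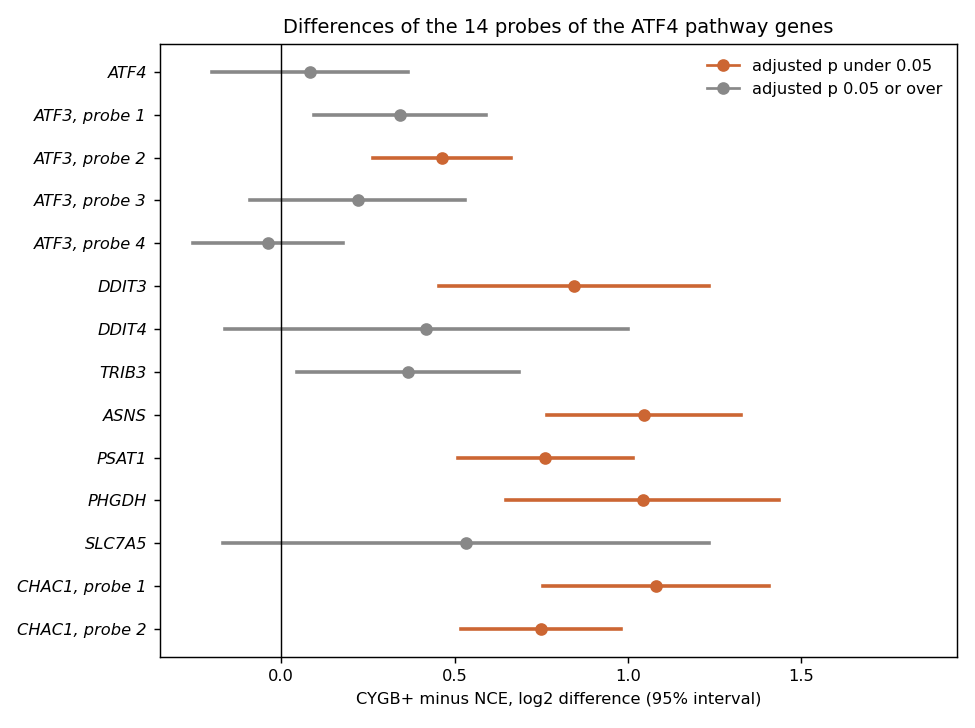
Log2 difference (labelled CYGB+ minus NCE, horizontal axis) of each of the 14 probes, with its 95% interval from limma over 3 against 3 biological replicates. Orange marks the 7 probes with an adjusted p under 0.05, where 5.5% of all tested probes were called higher, and the probes of *CHAC1*, *ASNS*, *PHGDH*, *DDIT3* and *PSAT1* lie farthest to the right.

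ATF4 with a C/EBP partner is known to bind composite elements with the core TGATGNAA. The stretch from 250 bases before to 50 bases after gene starts in a RefSeq table (GRCh38.p14) was searched for these letters on both strands. The table need not hold every annotated start, and starts outside it were not searched. All 10 genes had at least 1 such window, 16 in all, and 3 genes held a match, or 30% of the members, against 2.73% of 10334 tested genes with a window and 4.46% of all 27305 genes. By window, 18.8% of the 16 member windows and 3.62% of all 35116 windows held one. The matching stretches are shown because they hold the 3 matches found in the windows of the members, each 5′ to 3′ on the strand of its gene, with the match in capitals:

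*ASNS*, chr7:97872443-97872502, minus strand: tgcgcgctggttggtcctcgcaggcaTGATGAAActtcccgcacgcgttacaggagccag

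*CHAC1*, chr15:40953236-40953295, plus strand: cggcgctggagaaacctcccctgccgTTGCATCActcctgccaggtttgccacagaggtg

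*ATF3*, chr1:212565190-212565249, plus strand: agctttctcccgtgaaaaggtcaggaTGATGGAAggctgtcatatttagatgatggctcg

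The *ASNS* match began 68 bases before the upstream one of its 2 searched starts. The *CHAC1* match, 209 bases before the start, reads TGATGCAA on the opposite strand. The *ATF3* match lay 191 bases before the upstream one of its 2 searched starts. *ASNS* and *CHAC1* are among the genes called higher, and *DDIT3*, *PSAT1* and *PHGDH*, also called higher, had no match in their windows. The letters were also absent from the windows of *ATF4*, *DDIT4*, *TRIB3* and *SLC7A5*. A match is a description of the sequence and no measure of binding.

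The transcription factors of the pathway differed among themselves. *ATF4* encodes the central factor, and its probe gave a log2 signal of 13.35, 13.64 and 13.50 in NCE replicates 1 to 3 and of 13.40, 13.65 and 13.69 in the replicates labelled CYGB+. The groups overlapped, and the log2 difference was 0.083 (SE 0.12, 95% interval -0.20 to 0.37, limma adjusted p = 0.706). *DDIT3* encodes CHOP, a C/EBP family factor of the stress response linked to cell death. Its signal was 8.34, 8.64 and 8.65 in NCE and 9.69, 9.11 and 9.35 in the replicates labelled CYGB+. No CYGB+ replicate overlapped with NCE, and *DDIT3* was higher by 0.84 on the log2 scale, or 1.80-fold (SE 0.17, limma adjusted p = 0.0239). The increase was uneven, with same-numbered replicates differing by 1.35, 0.48 and 0.70. Of the replicates, leaving out NCE 1, 2 or 3 or CYGB+ 3 ended the call, with log2 differences of 0.74, 0.89, 0.90 and 0.86 and limma adjusted p of 0.0688, 0.0815, 0.0737 and 0.0570.

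*ATF3*, a stress-induced repressor and activator of the same protein family, was read by 4 probes that did not all move together. The brightest probe (A_23_P34915) gave 10.20, 10.23 and 10.32 in NCE and 10.53, 10.48 and 10.76 in the replicates labelled CYGB+, a log2 difference of 0.34 (SE 0.11, limma adjusted p = 0.0845). The replicates did not overlap, yet this probe missed the threshold. A second probe (A_33_P3214105) gave 7.24, 7.22 and 7.20 against 7.63, 7.76 and 7.66 and was higher by 0.46 (SE 0.08, limma adjusted p = 0.0194). The remaining probes had log2 differences of 0.22 and -0.038 (limma adjusted p = 0.328 and 0.830). The 2 arrays of CYGB+ replicate 1 read 9.87 and 11.19 with the brightest probe, the lowest and the highest value of all 15 arrays. Without the array that did not track its repeat, the difference of this probe was 0.56 (limma adjusted p = 0.0540) and that of the second probe 0.64 (limma adjusted p = 0.0159). The call of the second probe was lost without NCE replicate 1, 2 or 3 or CYGB+ replicate 3, where its difference stayed between 0.45 and 0.47, and it was called in 11 of 20 alternatives.

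All 3 genes for the synthesis of amino acids were higher in the replicates labelled CYGB+. *ASNS* encodes asparagine synthetase, which makes asparagine from aspartate and glutamine. Its log2 signal was 11.48, 11.56 and 11.34 in NCE and 12.67, 12.32 and 12.53 in the replicates labelled CYGB+. Every single array labelled CYGB+ (12.31 to 12.76) lay above every NCE array (11.21 to 11.73), and *ASNS* was 2.07-fold higher (log2 difference 1.05, SE 0.12, limma adjusted p = 0.00552). *PHGDH* encodes the dehydrogenase of the first step of serine synthesis. It gave 10.18, 9.92 and 9.77 in NCE and 10.81, 11.31 and 10.89 in the replicates labelled CYGB+, and was 2.06-fold higher (log2 difference 1.04, SE 0.17, limma adjusted p = 0.0130). The lowest of these, CYGB+ replicate 1, was the mean of 10.09 and 11.52, where the lower value came from the array that stood apart and fell among the NCE arrays (9.36 to 10.40). Without that array the log2 difference of *PHGDH* was 1.28 (limma adjusted p = 0.00385). Without NCE replicate 2 or 3 its call was lost, with log2 differences of 1.02 and 0.95 (limma adjusted p = 0.0646 and 0.0588).

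*PSAT1* encodes the aminotransferase of the next step of serine synthesis. Its signal was 10.74, 10.49 and 10.67 in NCE and 11.47, 11.27 and 11.45 in the replicates labelled CYGB+. The groups did not overlap and *PSAT1* was 1.69-fold higher (log2 difference 0.76, SE 0.11, limma adjusted p = 0.00915). Same-numbered replicates differed by 0.72, 0.78 and 0.78, an even increase, although the labels do not name them as pairs. *PSPH*, the phosphatase of the last step of the same route, is no member but the measured partner of both genes. Its log2 difference was -0.18 and did not pass the test (limma adjusted p = 0.306). It stood at -0.097 without 1 array that stood apart, at -0.064 without 3 and at -0.44 with slide as a term, with no call.

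*CHAC1* encodes a glutathione-degrading enzyme that is induced downstream of ATF4 and CHOP. Both of its probes were higher. The brighter probe (A_33_P3376971) gave 8.55, 8.80 and 8.36 in NCE and 9.62, 9.81 and 9.52 in the replicates labelled CYGB+, a 2.11-fold increase (log2 difference 1.08, SE 0.14, limma adjusted p = 0.00747). The other probe (A_33_P3376965) gave 6.48, 6.70 and 6.49 against 7.29, 7.35 and 7.28, a 1.68-fold increase (log2 difference 0.75, SE 0.10, limma adjusted p = 0.00765). Every array labelled CYGB+ exceeded every NCE array with both probes. *CHAC2*, the constitutive relative of *CHAC1*, had a log2 difference of 0.013 (limma adjusted p = 0.965).

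**Figure D2:**
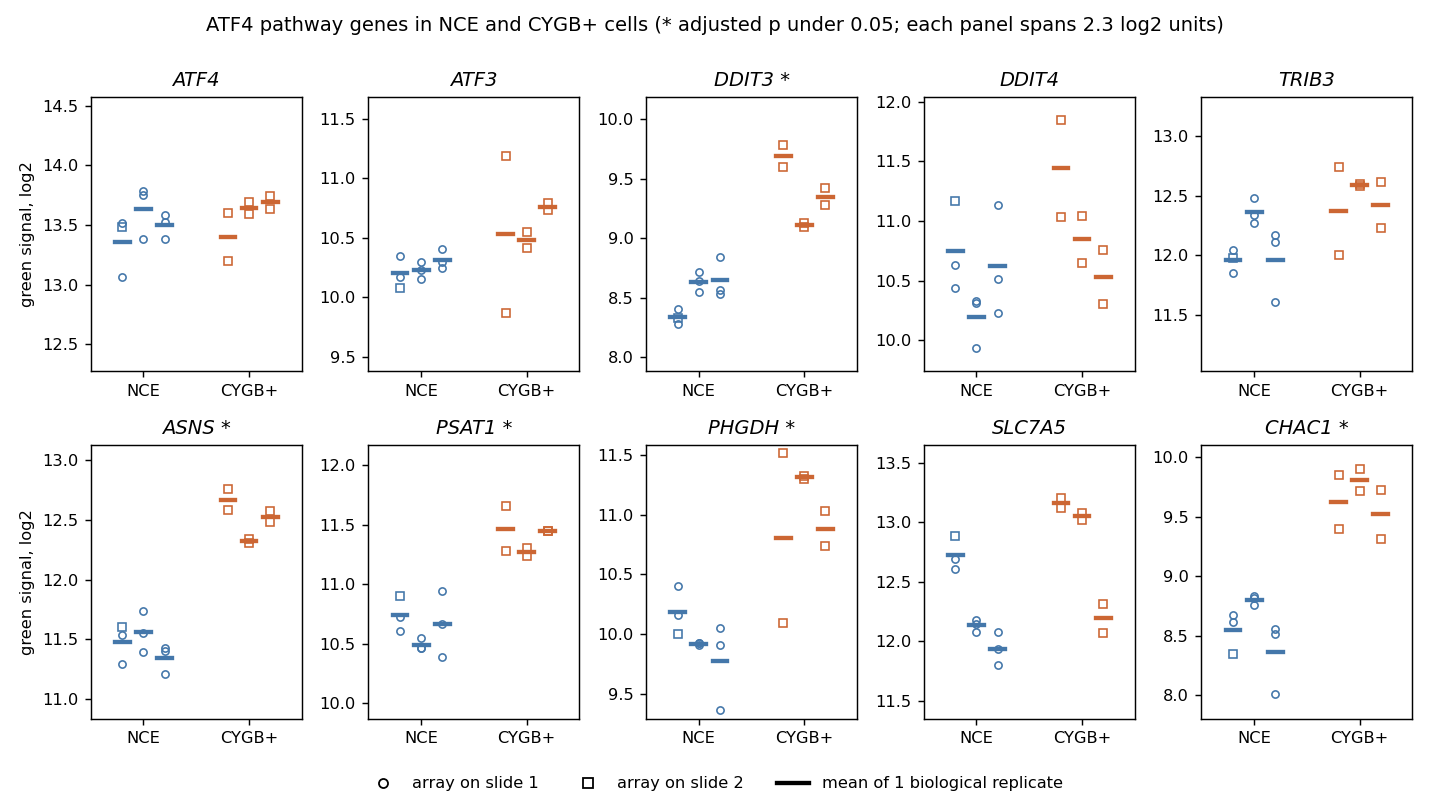
Log2 green signal (vertical axis, each panel spanning 2.3 units) of the brightest probe of each of the 10 genes in NCE (blue) and in samples labelled CYGB+ (orange). Open symbols are single arrays, circles on slide 1 and squares on slide 2, bars are the means of the 3 biological replicates of each group, and asterisks mark an adjusted p under 0.05; the 2 CYGB+ replicate 1 arrays of *ATF3* and *PHGDH* lie far apart.

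The transporter and both signalling regulators missed the threshold. *SLC7A5* encodes the light chain of LAT1, which imports large neutral amino acids. Its log2 signal was 12.72, 12.13 and 11.94 in NCE and 13.16, 13.05 and 12.19 in the replicates labelled CYGB+. The groups overlapped, because CYGB+ replicate 3 lay below NCE replicate 1, and the log2 difference was 0.53 (SE 0.30, 95% interval -0.17 to 1.23, limma adjusted p = 0.297). The pooled SD between arrays of a replicate was 0.115, against 0.473 between replicates of a group. Not all replicates lay apart, as the 13.16 and 13.05 of CYGB+ replicates 1 and 2 show. Same-numbered replicates differed by 0.43, 0.91 and 0.25, each above 0, and the limma adjusted p with the replicate number as a block was 0.0684. *SLC3A2*, the heavy chain with which LAT1 reaches the membrane, is not a member. It gave 10.78, 11.05 and 10.89 in NCE and 11.99, 11.65 and 11.96 in the replicates labelled CYGB+, and was higher by 0.96 on the log2 scale (limma adjusted p = 0.00775).

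*TRIB3* encodes a pseudokinase that restrains ATF4, CHOP and AKT. Its signal was 11.96, 12.36 and 11.96 in NCE and 12.37, 12.59 and 12.42 in the replicates labelled CYGB+. The replicates did not overlap, although NCE replicate 2 reached 12.36 and CYGB+ replicate 1 only 12.37, and the log2 difference of 0.37 missed the threshold (SE 0.14, limma adjusted p = 0.135). Without the array that stood apart it was 0.49 (limma adjusted p = 0.0454), without the first 3 such arrays 0.49 (limma adjusted p = 0.0191) and without all 4 it was 0.50 (limma adjusted p = 0.0178). Those 3 fits called 18.4%, 22.6% and 25% of all tested probes, against 10.8% in the main fit. The related *TRIB1* was higher by 0.48 and *TRIB2* lower, with a log2 difference of -0.36 (limma adjusted p = 0.0215 and 0.0450, the latter 0.0645 with the replicate number as a block). With slide as a term their limma adjusted p were 0.0643 and 0.0631. The *TRIB2* probe was well above background on 9 NCE arrays and on 3 arrays labelled CYGB+. It therefore passed the filter only through the group where it is high.

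*DDIT4* encodes REDD1, an inhibitor of mTORC1 signalling, and was read by a probe printed on 10 spots. It gave 10.75, 10.19 and 10.62 in NCE and 11.44, 10.85 and 10.53 in the replicates labelled CYGB+. The groups overlapped, since CYGB+ replicate 3 lay below NCE replicates 1 and 3, and the log2 difference was 0.42 (SE 0.25, 95% interval -0.16 to 1.00, limma adjusted p = 0.323). Without the array that stood apart it was 0.28 (limma adjusted p = 0.308). *SESN2*, another stress-induced inhibitor of mTORC1, was higher by 0.58 (limma adjusted p = 0.0325), and with slide as a term by 0.56 without passing the test (limma adjusted p = 0.131).

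Slide and group overlapped almost completely. The files place 8 NCE arrays on 1 slide, and the remaining NCE array, the third array of replicate 1, on the other slide with all 6 arrays labelled CYGB+. The deviations of that NCE array correlated with those of the other NCE arrays at a median r of -0.14. On the shared slide, all 6 arrays labelled CYGB+ exceeded the NCE array for 6 of the 10 genes: *ASNS*, *CHAC1*, *DDIT3*, *PHGDH*, *PSAT1* and *TRIB3*. This pattern was not counted over all tested genes, and it rests on 1 NCE array, so the count of 6 only describes the members. For *ASNS* the NCE array read 11.60 and the lowest of the 6 others 12.31. For *CHAC1* these values were 8.35 and 9.32, for *DDIT3* 8.33 and 9.10, for *PSAT1* 10.90 and 11.24, for *PHGDH* 10.00 and 10.09, and for *TRIB3* 11.98 and 12.00. The gap was therefore wide for *ASNS*, *CHAC1* and *DDIT3*, and narrow for *PHGDH* and *TRIB3*. For *DDIT4* the NCE array on the shared slide read 11.17 and 1 of the 6 others was above it, and for *SLC7A5* it read 12.88 with 4 above it.

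With slide as a term in the model, 3 of the 10 genes were called: *ASNS* at 0.90, *CHAC1* at 1.31 and *DDIT3* at 0.99 on the log2 scale (limma adjusted p = 0.0137, 0.0119 and 0.0234). That fit took the 15 arrays singly, with biological replicate as a random block, and not 3 against 3 averaged replicates. Its slide term rests on the 1 NCE array of the shared slide, which stood apart from its group. The consensus correlation of array repeats was 0.17, so its p-values rest largely on the spread between single arrays. Being called or not in that fit, here and below, carries both limits. In that fit 3.26% of all tested probes were called. Single arrays fitted without the slide term gave 21.8% of probes and the same 5 members as the main fit. *PHGDH* kept a log2 difference of 1.10 without passing the test (limma adjusted p = 0.218), and *PSAT1* stood at 0.51 (limma adjusted p = 0.205). The difference of *DDIT4* turned to -0.20 and that of *SLC7A5* stood at 0.049, neither of them called in any fit. Within the shared slide alone no member was called by limma, but only 5 of all tested probes were, so the count says nothing of the members. There, 7 members had an unadjusted p under 0.05, as did 2380 of the 22326 probes tested there, and the lone NCE array is assumed to vary like the other group. *ASNS*, *CHAC1*, *DDIT3* and *PHGDH* differed there by 0.90, 1.30, 1.05 and 1.01.

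**Figure D3:**
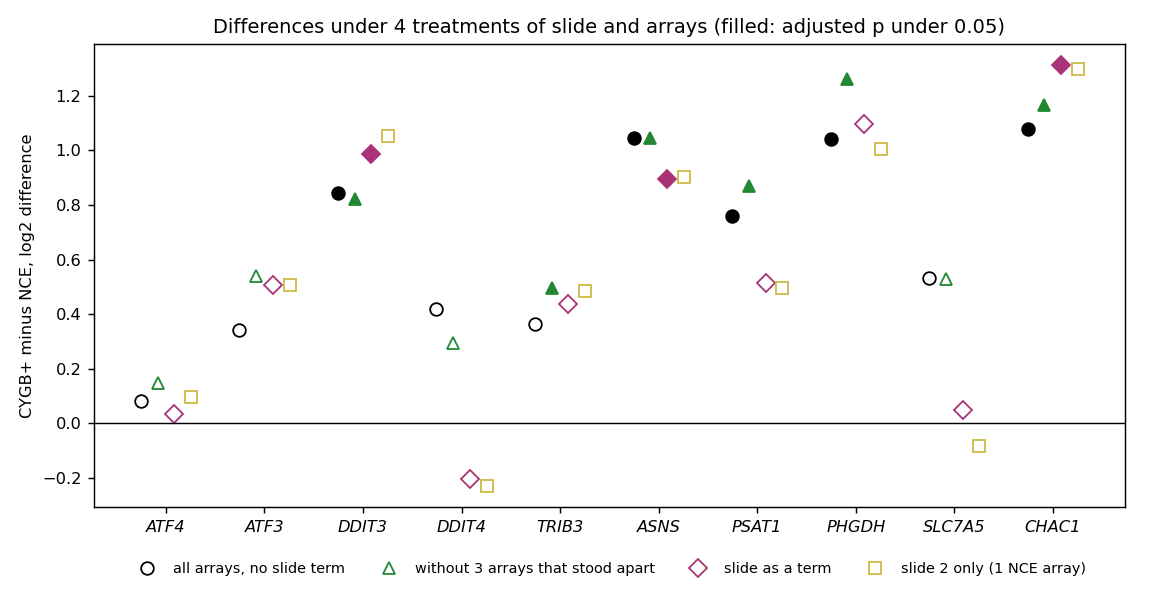
Log2 difference (labelled CYGB+ minus NCE, vertical axis) of the 10 genes with all arrays, without 3 arrays that stood apart, with slide as a term and on the shared slide alone. Filled symbols have an adjusted p under 0.05. *ASNS*, *CHAC1*, *DDIT3* and *PHGDH* stay above 0.8 in all 4 treatments, while *DDIT4* and *SLC7A5* move to -0.23 and -0.081 on the shared slide.

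Around the members, 8 lists of genes of the same and neighbouring pathways were read from the same fit. Of the 152 genes listed, 141 were tested, and 25 of them were higher and 9 lower in the replicates labelled CYGB+, or 24.1% against 13.2% of all tested genes called in either direction. With slide as a term, 8 of the 141 were called, in a fit that called 3.26% of all tested probes. Of the 28 called genes that are named from these lists, all kept their direction in that fit and 6 kept their call.

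Other known targets of ATF4 and CHOP, with their leucine zipper partners, had 5 of 20 tested genes higher and 2 lower, with a median log2 difference of 0.091. This is 35% called in either direction, against 13.2% of all tested genes. *SQSTM1*, an autophagy receptor, was higher by 1.42 and *GDF15*, a secreted stress cytokine, by 1.07 (limma adjusted p = 0.0107 and 0.0342). *BATF3*, a leucine zipper factor, was higher by 0.75 and *ERO1A*, an oxidase of the endoplasmic reticulum, lower, with a log2 difference of -0.77 (limma adjusted p = 0.00668 and 0.0405). *BATF3* remained called with slide as a term (0.76, limma adjusted p = 0.0152), where *SQSTM1*, *GDF15* and *ERO1A* had log2 differences of 1.28, 0.90 and -0.69 and did not pass the test (limma adjusted p = 0.145, 0.165 and 0.238).

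Among amino acid transporters, 3 of 15 were higher and 2 lower, with a median of 0.26. This is 33.3% called in either direction, against 13.2% of all tested genes. The glycine transporter *SLC6A9* was higher by 1.25, the lysosomal transporter *SLC36A1* by 0.98 and *SLC3A2* by 0.96, while the glutamate transporter *SLC1A3* and the LAT2 light chain *SLC7A8* had log2 differences of -1.18 and -0.52 (limma adjusted p = 0.0327, 0.00532, 0.00775, 0.0124 and 0.0228). A second *SLC6A9* probe was higher by 0.40 (limma adjusted p = 0.0270). That probe was well above background on 1 NCE array and on 6 arrays labelled CYGB+. It therefore passed the filter only through the group where it is high, and is no separate support. *SLC3A2*, *SLC36A1* and *SLC7A8* were also called with slide as a term, *SLC7A8* with a log2 difference of -0.94, while *SLC6A9* stood at 0.67 and *SLC1A3* at -1.43 without passing the test (limma adjusted p = 0.449 and 0.0778). Of the 20 cytosolic aminoacyl-tRNA synthetases, which charge tRNAs and are partly under ATF4, 6 were higher and 2 lower, with a median of 0.20. That is 40% called, against the same 13.2%. *HARS1*, *GARS1* and *RARS1* were higher by 0.68, 0.65 and 0.60, and *QARS1* had the largest change in the list, a log2 difference of -0.91 (limma adjusted p = 0.0493, 0.0105, 0.0180 and 0.00450). With slide as a term *GARS1* and *QARS1* kept their calls, and *HARS1* and *RARS1* did not (limma adjusted p = 0.286 and 0.0813).

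Of the 17 other genes for serine, glycine, one-carbon and proline synthesis, 1 was called higher, or 5.88%, near the 6.5% of all tested genes. It was *PYCR3* of proline synthesis, higher by 0.62 (limma adjusted p = 0.0453). None was lower, against 6.67% of all tested genes, and the median was -0.091. With the replicate number as a block 2 genes were called, in a fit that called 13.1% of all tested probes. With slide as a term *PYCR3* was not called (limma adjusted p = 0.266). A second *PYCR3* probe had a log2 difference of 0.16 (limma adjusted p = 0.329). *SHMT2* and *MTHFD2*, of the mitochondrial one-carbon route and named after their values were seen, had differences of -0.24 and 0.20 that did not pass the test (limma adjusted p = 0.381 and 0.400). 

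Upstream, 2 of 15 genes for eIF2, its kinases, exchange factor and phosphatase were higher and none lower, with a median of 0.086. This is 13.3% of the list, against 6.5% of all tested genes called higher and 13.2% called in either direction. The 2 called genes were *EIF2AK1*, the haem-regulated eIF2 kinase, by 0.63, and *EIF2B1*, a subunit of the exchange factor, by 0.38 (limma adjusted p = 0.0378 and 0.0449). Neither passed the test with slide as a term, where *EIF2B1* stood at 0.18. The ATF6 and XBP1 arms of the unfolded protein response had 3 of 21 genes higher, or 14.3%, against the same shares of all tested genes. None was lower, and the median was -0.027. With the replicate number as a block 5 were called, in a fit that called 13.1% of all tested probes. The chaperones *CANX* and *HSPA5* and the degradation factor *DERL1* were higher by 0.68, 0.61 and 0.65 (limma adjusted p = 0.0219, 0.0227 and 0.0167). Of mTORC1 and its amino acid sensors, 2 of 21 were higher and 2 lower, with a median of 0.045. Called in either direction were 19.0%, against 13.2% of all tested genes. *LAMTOR4* and *RHEB* stood at 0.69 and 0.46 and *NPRL3* and *RRAGC* at -0.58 and -0.43 (limma adjusted p = 0.0417, 0.0345, 0.0367 and 0.0443, the last of these 0.0607 with the replicate number as a block). None of the 7 genes named from both lists was called with slide as a term. The nearest relatives of the members had 3 of 15 genes higher and 2 lower with a median of 0.26, or 33.3% called against the same 13.2%. Among them the AP-1 factors *JUNB* and *FOSL2* were higher by 0.64 and 0.45 (limma adjusted p = 0.0229 and 0.0452). Neither was called with slide as a term, where *FOSL2* stood at 0.28.

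**Figure D4:**
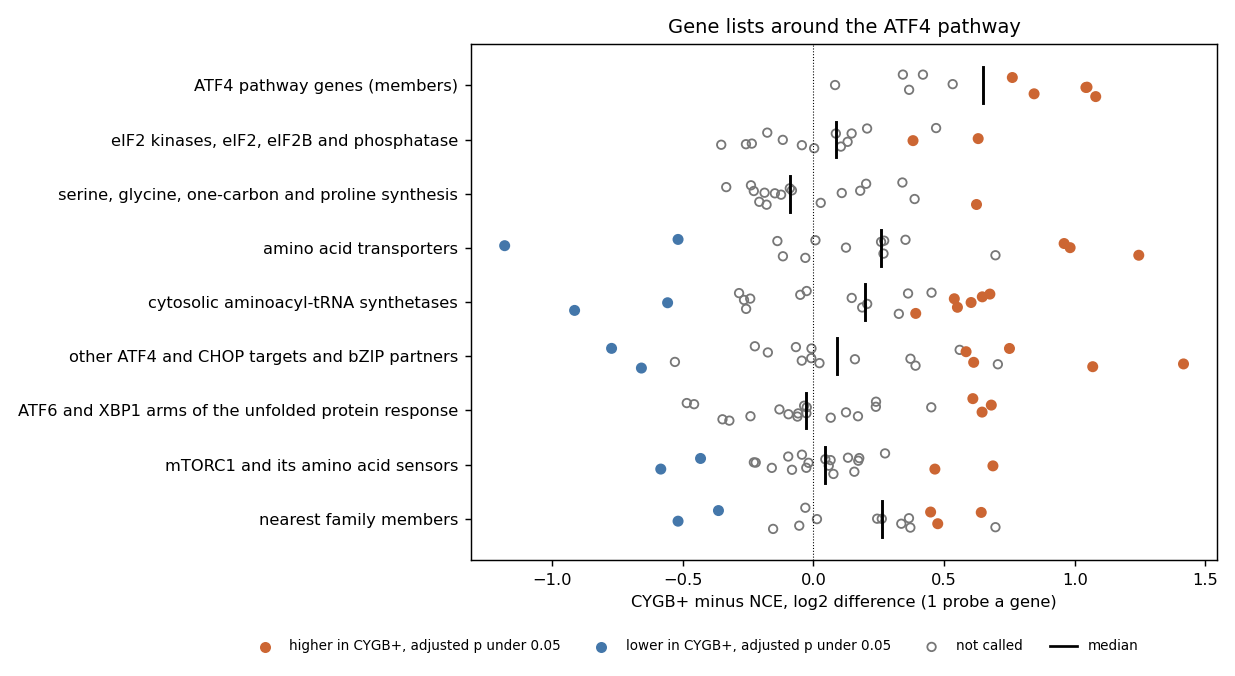
Log2 difference (labelled CYGB+ minus NCE, horizontal axis) of each tested gene, by 1 probe, in the 10 members and 8 neighbouring lists, with vertical jitter and a black line at each median. Orange and blue points have an adjusted p under 0.05; the median of the members is 0.65 and the medians of the other lists lie between -0.091 and 0.26.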

How the data were processed

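Per the labels and file headers, the authors hybridised Cy3-labelled RNA to Agilent 8x60K human arrays and extracted them with Feature Extraction 10.7.3.1 under a two-colour protocol. The deposited scanner files gave green median spot and background intensity, since the mean signal was absent, and a processed signal. The deposited value table held natural log green signal, quantile-normalized and centred per probe by the authors for a part of the probes. It was found from the values and used as an alternative after conversion to the log2 scale. The red channel was not used.

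Background was corrected with normexp (offset 50), values were log2-transformed and quantile-normalized, outlier spots were removed, and spots of a probe and then arrays of a replicate were averaged. Probes well above background on at least 6 of 15 arrays were tested with limma 3.58.1 (R 4.3.3), 3 replicates against 3, two-sided, with Benjamini-Hochberg adjustment. Fits with slide as a term took the 15 arrays singly, with biological replicate as a random block. The number of arrays limits precision. For counts by gene, the brightest probe stood for the gene. Named genes were the members, up to 4 called genes of each list with the largest difference, and measured partners. *EIF2S3* and *ADM2* were not matched on the array. The level of 1 immune marker is not reported here. The members and lists were chosen with earlier results of these data known. Same-numbered replicates deviated together (r = 0.21, 0.23 and 0.30), although NCE 2 with CYGB+ 3 (0.29) and NCE 1 with CYGB+ 2 (0.21) correlated as much. The labels do not say that a number is a shared extraction day. The main fit therefore took no pairs, and the replicate number entered only as a block in an alternative fit. Differences of same-numbered replicates are descriptive. Scripts were tested on simulated data. Promoter sequence came from RefSeq (GRCh38.p14).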

Additional observations from a re-analysis of the deposited data

Results flagged for a closer look

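Over the 14 member probes, single arrays of each group were compared with the other arrays of that group in 28 tests of a lone extreme value, and 2 stood out. Chance gives about 1 in 20. The *ATF4* probe read 13.20 on the first array of CYGB+ replicate 1, against 13.60 on the next lowest of the 6 arrays, a gap of 0.728 of the range. The *PHGDH* probe read 9.36 on the second array of NCE replicate 3, against 9.90 on the next lowest of the 9 NCE arrays, a gap of 0.524 of the range. Both arrays are among those that stood apart from their groups over all tested probes.

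The red channel, which no comparison used, was well above background on all 15 arrays for 13 of the 14 member probes. The labels do not name the RNA in it.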

How the results depend on the processing

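The 5 member calls, *ASNS*, *CHAC1*, *PHGDH*, *DDIT3* and *PSAT1*, kept their direction under all alternatives run. With the replicate block the same 5 were called, with 2933 probes in all, and it changed no member call; of the 28 named genes of the other lists, *RRAGC* and *TRIB2* were no longer called. The count of 2415 called probes, 5 members and 34 genes of the wider lists became 1838, 5 and 16 with the processed green signal, 1524, 5 and 14 with its 75th percentile scaling, 1504, 5 and 23 with normexp and that scaling, 2033, 4 and 21 without the filter on dim probes (*DDIT3* lost), 4858, 5 and 50 with 15 arrays fitted singly, and 1444, 5 and 18 with the values of the authors, which lack *DDIT4*, 1 *CHAC1* probe and part of the wider lists. It became 728, 3 and 8 with slide as a term, 5, 0 and 0 on the shared slide (2380 probes at an unadjusted p under 0.05), and 660, 2 and 5 with the methods' t-test, which lost *DDIT3*, *PHGDH* and *CHAC1*. Leaving out 1 replicate in turn gave 493 to 2398 probes, 3 to 5 members and 6 to 24 genes of the wider lists, lowest without NCE replicate 2 (493, 3 and 8) and NCE replicate 3 (495, 3 and 6). Leaving out 1 array that stood apart, chosen after seeing the data, gave 4108, 6 and 41, leaving out 3 gave 5049, 6 and 53, and leaving out 4 gave 5589, 6 and 51, each with *TRIB3* added. The causes were not tested.

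Direction turned only for uncalled values. *CYGB* stood at 0.091 with the processed signal and 75th percentile scaling, 0.047 with the values of the authors, and between -0.31 and 0.22 without single replicates. The *ATF3* probe A_33_P3214096 stood at 0.25 with slide as a term, 0.25 on the shared slide, 0.021 with the values of the authors, and between -0.074 and 0.011 without single replicates. *DDIT4* stood at -0.20 with slide as a term and -0.23 on the shared slide, and *SLC7A5* at -0.081 there. *CHAC2* stood between -0.094 and 0.090 without single replicates, and at -0.0098, -0.024 and -0.035 without 1, 3 and 4 arrays. Slide, clone and group cannot be fully told apart, and with 3 replicates a group small differences were not detectable.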
